A study of Mus musculus with 8 samples.

Results

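The cytosolic ribosomal protein genes were compared between Med23+/+ and Med23-/- immature oligodendrocytes (iOLs). They were taken from the gene table by symbol: names of Rpl or Rps followed by a digit, with Rpsa, Rplp0, Rplp1, Rplp2 and Fau, without the ribosomal kinases and binding proteins that share the prefix and without 6 names that contain -ps. This gave 88 of 24346 genes, of which 46 encode proteins of the large subunit, 32 encode proteins of the small subunit and 10 are variants or retrocopies named after another member. Of the 88, 85 reached a mean of 1 FPKM over all libraries and could be tested. FPKM is a fragment count divided by transcript length and by the size of the library, so levels of different genes can be set side by side.

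RNA-seq was performed on 8 libraries, 4 from Med23+/+ and 4 from Med23-/- cells. Primary oligodendrocyte precursor cells (OPCs) were immunopanned from mouse brains at postnatal day 7, grown in Sato medium, and induced for 1 day with 15 nM T3, the active thyroid hormone, and 10 ng/mL CNTF, a cytokine. The Med23-/- cells came from Med23 fl/fl;Olig1-cre mice, in which Cre acts in the oligodendrocyte lineage, and the study used Med23 fl/fl littermates without Cre as controls, so the loss of Med23 and the presence of Cre cannot be told apart. Med23 encodes a subunit of Mediator, the complex that links transcription factors to RNA polymerase II, and the comparison asks how its loss changes gene expression during OPC differentiation. The labels number the replicates 1 to 4 in each genotype and do not say whether they came from separate animals or cultures, so p-values measure the spread between these libraries, which may be technical.

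Ribosomal proteins are assembled with ribosomal RNA in the nucleolus into the large and the small subunit, and nearly all of them are needed in equal numbers. Their mRNAs are among the most abundant of any cell and typically begin with a C followed by a run of C and T, the terminal oligopyrimidine tract, through which the kinase mTOR and the RNA-binding protein Larp1 control their translation. Myc raises the transcription of ribosomal protein genes and of the factors that assemble ribosomes. Many of the genes have left processed copies in the genome, so that reads of one gene can match several places.

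Med23 had 12.7, 12.2, 12.6 and 12.6 FPKM in Med23+/+ and 8.40, 7.93, 8.49 and 8.21 FPKM in Med23-/- cells (limma adjusted p = 0.000353), so that 0.658 of the control level remained in the whole-gene value. The sum of 8 oligodendrocyte lineage markers was 1877 to 2158 FPKM in Med23+/+ and 1578 to 2088 FPKM in Med23-/- libraries, and 4 of the 8 were called lower and 2 higher. All 5 neuron markers were called higher in Med23-/- cells, with sums of 35.4 to 57.5 against 73.4 to 144.1 FPKM. Of 5 astrocyte markers 1 was higher and 2 were lower, with sums of 27.5 to 71.6 against 24.4 to 44.1 FPKM. No microglia marker passed 1.06 FPKM and no endothelial marker passed 2.69 FPKM in any library. The part of other cell types in the results below was not tested, and in bulk RNA fewer cells of a type and less RNA per cell cannot be told apart. Read counts were not used, so depth is unknown. From the spacing of values under 0.2 FPKM, 1 read was worth 0.74 to 1 of its worth in Med23+/+ replicate 1 in the Med23+/+ libraries and 0.76 to 0.969 in the Med23-/- libraries, so the ranges overlapped.

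Part of the ribosomal protein genes were called lower in Med23-/- iOLs, none higher, and the differences were under 2-fold. Of the 85 tested members, 83 had a negative log2 difference, 35 (41.2%) were called lower, 0 were called higher and 50 were not called by limma at an adjusted p under 0.05. Of all 12328 genes tested, 14.1% were called lower and 15.9% higher at the adjusted threshold. At an unadjusted p under 0.05, 53 members were lower and 0 were higher. The share of all genes at that threshold was not counted, so these 53 cannot be set against a background. The median log2 difference of the members was -0.30, with quartiles of -0.36 and -0.23, and the median over all genes tested was -0.01. The mean of a member in Med23-/- was 0.812 of its Med23+/+ mean at the median, and ran from 0.606 to 1.18. With a change of more than 2-fold also required, 0 members were called in either direction, against 1.75% of all genes lower and 2.98% higher, and at an unadjusted p under 0.05 none passed 2-fold either.

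The same shift was seen library by library. The mean log2(FPKM + 1) over the tested members was 9.13, 9.12, 9.20 and 9.18 in the Med23+/+ libraries and 8.82, 8.83, 8.87 and 8.93 in the Med23-/- libraries. The genotypes did not overlap, and their means were 9.16 ± 0.0408 and 8.86 ± 0.0498 (SD, n = 4 each). The summed FPKM of all 88 genes was 66728 to 71795 in Med23+/+ and 55749 to 59005 in Med23-/- libraries. In 46 members (54.1%) all Med23-/- values lay under the lowest Med23+/+ value, and in 0 members all lay above the highest. Among all genes tested 15.3% were without overlap lower and 16.3% higher. Of the 35 members called lower, 30 were without overlap.

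**Figure D1:**
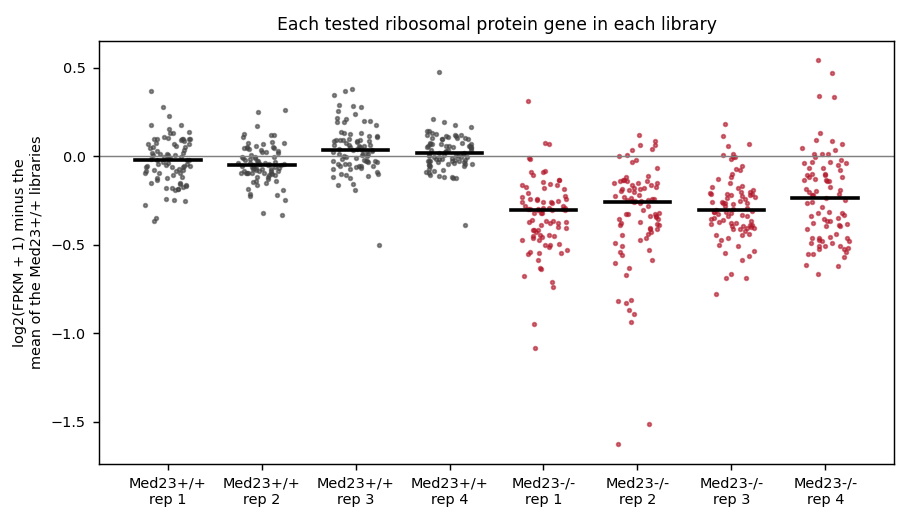
Each point is a tested ribosomal protein gene in a library, as its log2(FPKM + 1) minus the mean of that gene over the Med23+/+ libraries, and each black bar is the median over the 85 genes. The bars of the 4 Med23-/- libraries lie below those of the 4 Med23+/+ libraries, and the lowest single points are in Med23-/- replicates 1 and 2, the highest in Med23-/- replicate 4.

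As a share of the FPKM of all genes at least 200 nt long, the members took 10.8%, 11.1%, 11.1% and 11.0% in the Med23+/+ libraries and 9.83%, 9.05%, 9.07% and 8.01% in the Med23-/- libraries. The groups did not overlap. Their means were 10.98% ± 0.150 and 8.99% ± 0.746 (SD, n = 4 each). A pair of noncoding RNA genes, Rmrp and Rpph1, took 32.8% to 34.5% of that total in Med23+/+ libraries and 30.9%, 37.8%, 37.1% and 41.3% in Med23-/- libraries. The Med23-/- library with the highest share in this pair, replicate 4, had the lowest share in the members, and replicate 1 had the reverse. The part of this pair in the members' share was not tested. Over protein-coding genes only, the members took 17.1% ± 0.182 in Med23+/+ and 14.6% ± 0.454 in Med23-/- libraries, again without overlap.

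The number of members called, and how it compared with other genes, depended on the scaling. Lower calls outnumbered higher ones among abundant genes: of the 675 genes that averaged 100 FPKM or more, 22.8% were called lower and 11.0% higher, with a median log2 difference of -0.14, and 78 of the 85 tested members are among them. In the 597 of these genes that are not members, 20.4% were called lower and 12.4% higher, with a median of -0.11. When the libraries were quantile normalized, 10 members (11.8%) were called lower, beside 13.8% of all genes, and the median of the members was -0.17. When each library was scaled to the FPKM sum of the other genes, 7 members (8.24%) were called lower, beside 7.48% of all genes, and the median was -0.25 while that of all genes was 0.03, so that the distance between the medians was -0.29 as before. With median-ratio scaling 33 members (38.8%) were called lower, beside 13.5% of all genes. When each library was scaled to the FPKM sum of the other protein-coding genes, 29 members (34.1%) were called lower, beside 12.8% of all genes. Under quantile normalization 78 members were negative, with the sum of the other genes 81, and 0 were called higher under any of these scalings.

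**Figure D2:**
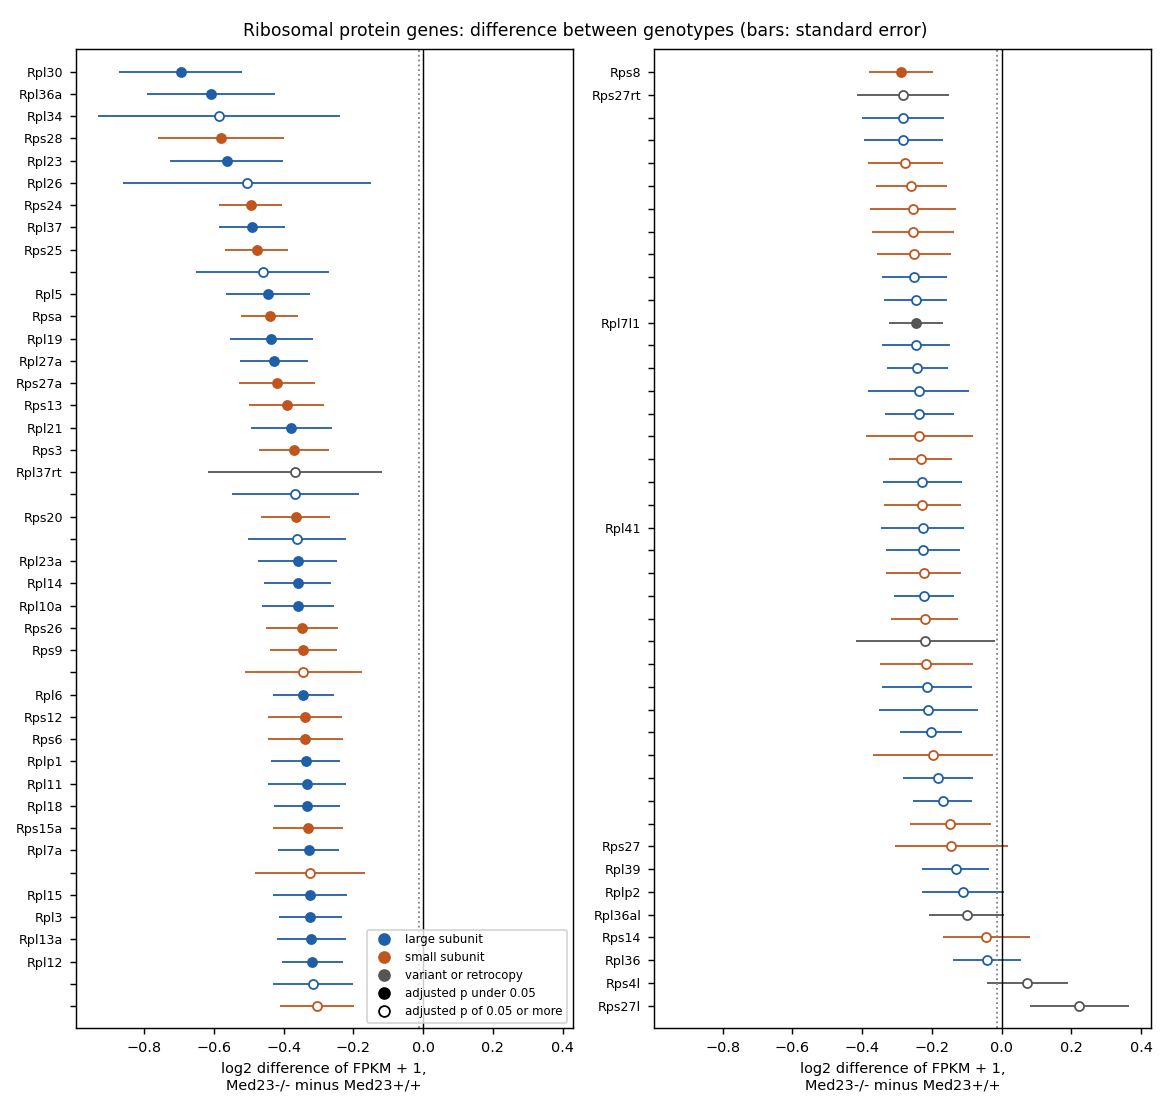
Log2 difference of FPKM + 1 between the genotypes for each of the 85 tested members, from the most negative at the top left to the highest at the bottom right, with its standard error as a bar and names for the members called and those at the ends of the range in difference or level. Filled points are the 35 members with a limma adjusted p under 0.05, the dotted line is the median of all genes tested, and 83 points lie below 0.

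Both subunits were lower in similar proportions, and the difference between them was not tested. In the large subunit 20 of 46 genes (43.5%) were called lower with a median log2 difference of -0.32. In the small subunit 14 of 32 (43.8%) were, with a median of -0.30. Of the 7 variants or retrocopies tested, 1 (14.3%) was called lower, the Rpl7 relative Rpl7l1, and their median was -0.22. That share was near the 14.1% of all genes tested that were called lower. Rpl10l was at 0 FPKM in every library, Rpl39l reached 0.289 FPKM and Rpl3l 0.0817 FPKM in their highest libraries, and these were not tested. All 3 are relatives of a ubiquitous member.

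The clearest differences were those in which the spread within a genotype was small. Rps24, a small subunit protein mutated in Diamond-Blackfan anaemia (chromosome 14, 24487125 to 24496959, mm10), had 768, 822, 742 and 699 FPKM in Med23+/+ and 517, 523, 577 and 532 FPKM in Med23-/- libraries. Every Med23-/- library was below every control library, with a log2 difference of -0.49 (standard error 0.0901, limma adjusted p = 0.00307). Rpsa, a small subunit protein also known as the precursor of a laminin receptor (chromosome 9, 120127689 to 120132369), had 689, 712, 717 and 647 FPKM in Med23+/+ and 498, 513, 524 and 501 FPKM in Med23-/- libraries. Here too the groups were apart, with a log2 difference of -0.44 (standard error 0.0813, adjusted p = 0.00329). Rpl37 of the large subunit (chromosome 15, 5116645 to 5119140) had 527, 501, 621 and 533 FPKM in Med23+/+ and 398, 370, 411 and 370 FPKM in Med23-/- libraries. Its groups did not overlap and its log2 difference was -0.49 (standard error 0.0942, adjusted p = 0.00403). Rps25 of the small subunit, named after its values were seen, fell by 0.48 on the log2 scale (adjusted p = 0.00385). Rps24, Rps25, Rpl37 and Rpl30 were the 4 members called lower in all 20 settings tried. The share of all genes called lower in every setting was not counted, so these 4 cannot be set against a background.

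Rpl30, a large subunit protein whose yeast counterpart binds its own transcript (chromosome 15, 34440505 to 34443640), had the most negative difference. Its level was 44.0, 59.9, 61.1 and 37.8 FPKM in Med23+/+ and 25.3, 27.8, 30.4 and 39.2 FPKM in Med23-/- libraries. Med23-/- replicate 4 lay within the control range, and the log2 difference was -0.70 (standard error 0.176, adjusted p = 0.0153). This level was low for a ribosomal protein gene, where the median member had a mean of 671 FPKM. Of the 50-nt words of its principal annotated transcript, 79.2% also occurred in other genes, most of all in D730044K07Rik. The part of reads shared among genes in the level of Rpl30 was not tested.

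In several of the members with the most negative differences, Med23-/- replicate 4 lay apart from the other Med23-/- libraries. Rpl36a (X chromosome, 134585654 to 134588062) had 463, 515, 510 and 470 FPKM in Med23+/+ and 292, 255, 285 and 494 FPKM in Med23-/- libraries. Replicate 4 was in the middle of the control range and the others far below it, with a log2 difference of -0.61 (standard error 0.184, adjusted p = 0.0316) that became -0.82 without replicate 4 (adjusted p = 0.000307). Leaving out any other library ended the call. Rpl34 (chromosome 3, 130726831 to 130730398) had 226, 201, 329 and 272 FPKM in Med23+/+ and 163, 87.7, 159 and 350 FPKM in Med23-/- libraries. Replicate 4 was the highest of all 8, and the log2 difference of -0.58 was not called (standard error 0.347, adjusted p = 0.237), while without replicate 4 it was -0.94 (adjusted p = 0.0174). Rpl26, a large subunit protein known to bind the Trp53 mRNA, had 33.5, 30.04, 38.2 and 53.0 FPKM in Med23+/+ and 31.4, 11.6, 26.9 and 48.1 FPKM in Med23-/- libraries, and its difference of -0.51 was not called (adjusted p = 0.319). It shared 61.0% of its 50-nt words with other genes, and the part of reads shared among copies in its level was not tested. Rps28, a small subunit protein near the exit of the mRNA channel, had 837, 982, 1357 and 1161 FPKM in Med23+/+ and 686, 601, 663 and 945 FPKM in Med23-/- libraries, with a difference of -0.58 (adjusted p = 0.0361). Its call was kept in 2 of the 8 fits that left out a library.

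Med23-/- replicate 4 lay over 0.5 above the mean of the other Med23-/- libraries on the log2 scale in 9 members, most in Rpl34 (1.41), Rpl26 (1.13) and Rpl36a (0.83). It lay below them by 0.62 in Rps4x and by 0.41 in Rpl7, and over all 85 members it was 0.04 above them at the median. The replicate was the highest of its genotype in 39 members and the lowest in 27. The median coefficient of variation of a member was 6.56% in Med23+/+ and 11.0% in Med23-/- libraries, and 62 members varied more in Med23-/-. Without this library 42 members (49.4%) were called lower, beside 13.6% of all genes.

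**Figure D3:**
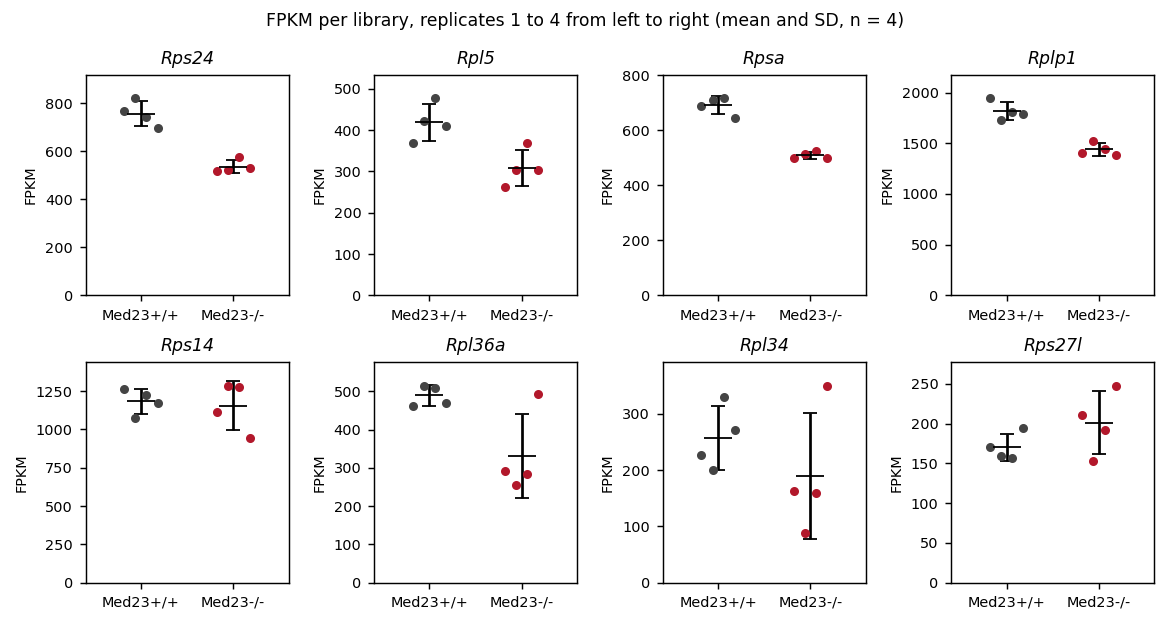
FPKM of 8 members in each library, replicates 1 to 4 from left to right within a genotype, with the mean and SD (n = 4). Rps24, Rpl5, Rpsa and Rplp1 have groups that do not overlap, and Rps14 and Rps27l show overlapping groups. The replicate 4 point of Med23-/- lies within the range of the control points in Rpl36a and above all of them in Rpl34.

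The stalk of the large subunit, which recruits translation factors, is built from Rplp0, Rplp1 and Rplp2. Rplp1 (chromosome 9, 61913284 to 61914542) had 1944, 1732, 1806 and 1792 FPKM in Med23+/+ and 1406, 1524, 1439 and 1387 FPKM in Med23-/- libraries. It was lower without overlap, with a log2 difference of -0.34 (standard error 0.0997, adjusted p = 0.0292). Rplp0 had 981 to 1116 FPKM in Med23+/+ and 823 to 942 FPKM in Med23-/- libraries, which did not overlap, but its difference of -0.25 was not called (adjusted p = 0.0841). Rplp2 had 1202 to 1378 FPKM in Med23+/+ and 1202, 1282, 1286 and 982 FPKM in Med23-/- libraries, with a difference of -0.11 that was not called (adjusted p = 0.522). The difference was not tested between the stalk genes.

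Several ribosomal proteins bind Mdm2, the ubiquitin ligase of p53, when ribosome assembly is disturbed. Mdm2 itself was called lower (-0.37, limma adjusted p = 0.00465), and Trp53, the gene of p53, was not called (-0.17, adjusted p = 0.392). Rpl5 (chromosome 5, 107900502 to 107909005), which enters the large subunit together with Rpl11, had 369, 422, 477 and 409 FPKM in Med23+/+ and 261, 303, 368 and 303 FPKM in Med23-/- libraries. The groups came close without overlapping, and the log2 difference was -0.44 (standard error 0.121, adjusted p = 0.021). Rpl11 had 905 to 972 FPKM in Med23+/+ and 625, 733, 783 and 854 FPKM in Med23-/- libraries, with a difference of -0.33 (adjusted p = 0.0476). Rpl23 had 386 to 534 FPKM in Med23+/+ and 269, 240, 303 and 400 FPKM in Med23-/- libraries, with a difference of -0.56 (adjusted p = 0.0258). On leaving out each of the 8 libraries in turn, Rpl11 lost its call in 7, Rpl23 in 4 and Rpl5 in 2.

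Rps27 and Rps27l belong to the same set of Mdm2 partners, and Rps27l, a p53 target gene, had the highest difference of all members. Rps27l (chromosome 9, 66946086 to 66949516) had 171, 159, 157 and 194 FPKM in Med23+/+ and 211, 153, 193 and 248 FPKM in Med23-/- libraries. The groups overlapped and the log2 difference of 0.22 was not called (standard error 0.141, adjusted p = 0.268). Rps27 had 7.85, 5.51, 5.39 and 6.64 FPKM in Med23+/+ and 6.68, 6.17, 3.85 and 6.05 FPKM in Med23-/- libraries, with a difference of -0.14 that was not called (adjusted p = 0.542). Its near copy Rps27rt had 1572 to 2091 FPKM in Med23+/+ and 1379 to 1768 FPKM in Med23-/- libraries, with a difference of -0.28 that was not called (adjusted p = 0.137). Of the 50-nt words of Rps27, 98.6% also occurred in Rps27rt, so the split of reads between the pair is uncertain and only their sum can be read. Around their starts, from 30 bases before to 20 bases from the start on, the pair share the stretch in capitals, which is shown because it lies at the first bases of both transcripts (RefSeq, GRCm38.p6, minus strand, chr3:90213629-90213678 for Rps27 and chr9:114982720-114982769 for Rps27rt).
Rps27: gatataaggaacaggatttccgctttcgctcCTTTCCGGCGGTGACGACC
Rps27rt: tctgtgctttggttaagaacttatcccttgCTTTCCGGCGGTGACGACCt

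Set against the sum of Rps27 and Rps27rt, the level of Rps27l was 10.8%, 8.54%, 7.89% and 9.26% in the Med23+/+ libraries and 13.4%, 11.0%, 13.2% and 14.0% in the Med23-/- libraries. Every Med23-/- value was above every control value, and the means were 9.12% ± 1.25 and 12.9% ± 1.29 (SD, n = 4 each). The log2 of the ratio differed by 0.51 (two-sided exact permutation p = 0.0286, the smallest that 4 against 4 can give), and the p was 0.171 after adjustment over the 6 ratios of a variant to its parent that were compared. Rpl36al relative to Rpl36a was 39.7% to 52.2% in Med23+/+ and 64.8%, 77.5%, 75.2% and 50.1% in Med23-/- libraries (exact permutation p = 0.0571, adjusted 0.171), with Med23-/- replicate 4 among the controls. For Rpl22l1 to Rpl22, Rps4l to Rps4x, Rpl7l1 to Rpl7 and Rpl37rt to Rpl37 the exact permutation p was 0.943, 0.457, 0.943 and 0.771. No ratio passed the adjustment.

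Among the variants themselves, Rpl7l1, whose yeast relative acts in ribosome assembly, had 42.2, 44.0, 40.9 and 43.1 FPKM in Med23+/+ and 31.7, 35.9, 36.6 and 39.1 FPKM in Med23-/- libraries. It was lower without overlap, with a log2 difference of -0.25 (standard error 0.0785, adjusted p = 0.0395). Rpl22l1 had 127 to 234 FPKM in Med23+/+ and 122 to 189 FPKM in Med23-/- libraries, and its difference of -0.22 was not called (adjusted p = 0.446). Rpl36al had 204 to 247 FPKM in Med23+/+ and 189 to 248 FPKM in Med23-/- libraries, with a difference of -0.10 (adjusted p = 0.525). Rps4l, annotated as a transcribed processed pseudogene, had 27.8 to 35.9 FPKM in Med23+/+ and 29.9 to 41.4 FPKM in Med23-/- libraries, with a difference of 0.07 (adjusted p = 0.676). Rpl37rt, annotated likewise, was the least abundant member tested at 0.950 to 1.91 against 0.186 to 1.62 FPKM. The groups of these last 4 overlapped. Of the parents, Rpl3 (-0.32, adjusted p = 0.0236), Rpl37 and Rpl36a were called lower, while Rpl10 (-0.32, adjusted p = 0.0645), Rpl22 (-0.24, adjusted p = 0.0989), Rpl7 (-0.21, adjusted p = 0.242), Rps4x (-0.20, adjusted p = 0.426) and Rpl39 (-0.13, adjusted p = 0.34) were not. Rps23, a parent whose copy was not analysed here, had a difference of -0.30 (adjusted p = 0.0547).

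Some ribosomal proteins are made fused to ubiquitin or a ubiquitin-like protein. Rps27a, which yields ubiquitin and a small subunit protein (chromosome 11, 29545846 to 29548109), had 683, 626, 540 and 576 FPKM in Med23+/+ and 455, 473, 490 and 393 FPKM in Med23-/- libraries. It was lower without overlap, with a log2 difference of -0.42 (standard error 0.109, adjusted p = 0.0168). Fau, which yields a ubiquitin-like protein and a small subunit protein, had 814, 649, 647 and 683 FPKM in Med23+/+ and 596, 630, 536 and 539 FPKM in Med23-/- libraries, which did not overlap, and its difference of -0.28 was not called (adjusted p = 0.0808). Gnb2l1, which lies outside the symbol rule and encodes the scaffold Rack1 of the small subunit, had a difference of -0.22 (adjusted p = 0.0812).

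Of 5 other members, 2 were called lower and 3 were not called. Rps6, the target of the S6 kinases downstream of mTOR, had 591, 597, 593 and 568 FPKM in Med23+/+ and 422, 493, 547 and 408 FPKM in Med23-/- libraries, and was lower without overlap (-0.34, standard error 0.108, adjusted p = 0.0395). Rpl13a, known to leave the ribosome to silence mRNAs of inflammation, had 801, 708, 717 and 755 FPKM in Med23+/+ and 595, 629, 524 and 642 FPKM in Med23-/- libraries (-0.32, standard error 0.0983, adjusted p = 0.0337). On leaving out each of the 8 libraries in turn, Rps6 kept its call in 1 fit and Rpl13a in 2. Rps19, the gene most often mutated in Diamond-Blackfan anaemia, had 611 to 724 FPKM in Med23+/+ and 502 to 673 FPKM in Med23-/- libraries. The groups overlapped, and its difference of -0.15 was not called (adjusted p = 0.374). Rps14, whose loss marks a myelodysplastic syndrome, had 1265, 1074, 1224 and 1170 FPKM in Med23+/+ and 1112, 1286, 1277 and 944 FPKM in Med23-/- libraries, and its difference of -0.04 was not called and turned to 0.05 without Med23-/- replicate 4. Rpl36 of the large subunit had 1135 to 1274 FPKM in Med23+/+ and 1077 to 1242 FPKM in Med23-/- libraries (-0.04, adjusted p = 0.779). Of the 83 negative differences, those of Rps14 and Rpl36 lay nearest to 0.

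By the FPKM listed, the most abundant members were Rpl41, Rps26, Rps27rt and Rplp1. The place of Rps27rt rests on an uncertain split of reads with Rps27, so it does not show which of that pair is expressed. Rpl41, the shortest of the ribosomal proteins, had 3122, 2868, 3076 and 3189 FPKM in Med23+/+ and 2609, 2660, 2359 and 2860 FPKM in Med23-/- libraries. The groups did not overlap, and the difference of -0.23 was not called (adjusted p = 0.179). Rps26 of the small subunit had 2020, 1988, 2220 and 2124 FPKM in Med23+/+ and 1524, 1663, 1666 and 1710 FPKM in Med23-/- libraries, which did not overlap (-0.35, adjusted p = 0.0305). Among members the difference was only loosely related to level (Spearman's rho 0.286 over the 85 genes), transcript length (rho -0.113) or the share of 50-nt words found in another gene (rho -0.103). These are correlations across genes of the same libraries, given as a description.

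Reads of a ribosomal protein gene can match its copies, and the authors' counting weighted such reads. The median member shared 49.3% of its 50-nt words with other annotated genes, and 43 shared over 50%. Those genes include some that overlap a member at its own place, as Snora7a within Rpl32. The shares are therefore not a measure of copies or of reads that match several places. By the share of words found elsewhere, 5 of 13 members under 25% were called lower, 11 of 29 from 25% to 50%, 8 of 22 from 50% to 75%, and 11 of 21 above 75%. The median log2 differences of these classes were -0.25, -0.32, -0.30 and -0.33.

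The start regions of members that moved together are shown for the 5 called members with the longest run of C and T over the transcription start, from 30 bases before to 20 bases from the start on (RefSeq, GRCm38.p6). Capitals mark that run on the strand of the gene, and they can include bases before the start, which are not in the transcript. Rps27l is set beside them as the member with the highest difference, and its start lies in no such run. That also holds for most members called, since 8 of the 27 with a sequence had a run of at least 8 C or T over the start. This count needs the run to cover the exact annotated start base. Within 50 bases of the start, 77.8% of the same 27 held such a run. The positions are chr2:26910777-26910826 (plus strand) for Rpl7a, chr7:109519165-109519214 (plus) for Rpl27a, chr14:18270967-18271016 (minus) for Rpl15, chr9:120571487-120571536 (plus) for Rpl14, chr4:86857348-86857397 (minus) for Rps6 and chr9:66946056-66946105 (plus) for Rps27l.
Rpl7a: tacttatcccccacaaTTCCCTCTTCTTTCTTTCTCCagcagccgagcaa
Rpl27a: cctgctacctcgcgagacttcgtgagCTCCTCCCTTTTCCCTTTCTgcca
Rpl15: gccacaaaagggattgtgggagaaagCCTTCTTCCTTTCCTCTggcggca
Rpl14: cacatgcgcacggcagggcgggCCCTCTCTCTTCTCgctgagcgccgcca
Rps6: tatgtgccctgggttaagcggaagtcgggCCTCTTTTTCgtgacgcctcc
Rps27l: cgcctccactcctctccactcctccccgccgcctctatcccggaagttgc

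A RefSeq window of 250 bases before to 50 bases from the start on was found for 67 of the 88 members. Within 50 bases of the start, 80.6% of the members held a run of at least 8 C or T on the strand of the gene, against 36.5% of the genes tested and 39.3% of all windows. The members called lower and those tested but not called held it in 77.8% of 27 and 83.8% of 37 windows. On either strand, the ETS-type motif CCGGAAG was in 38.8% of the members' windows, 20.4% of those of the genes tested and 9.93% of all windows. The GC box GGGCGG, the kind of site Sp1 binds, was in 61.2% of the members' windows, 70.9% of those of the genes tested and 38.2% of all windows. The Myc-type motif CACGTG was in 8.96%, 11.8% and 8.09%. No motif searched contains another, though they can share bases at their ends, and the matches describe the sequence only.

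Lists of genes that build or serve the ribosome were counted in the same way. These lists were drawn up with earlier results of these data known, and their counts are read beside the 14.1% of all genes called lower and 15.9% called higher. Of 55 ribosome assembly factors tested, 34 were called lower and 0 higher, with a median log2 difference of -0.34. Of 15 genes of RNA polymerase I and its factors, which transcribe ribosomal RNA, 8 were lower and 0 higher, with a median of -0.30. Of 36 translation factors 12 were lower and 0 higher, with a median of -0.23. Of 77 mitochondrial ribosomal proteins, which belong to the separate ribosome of that organelle, 15 (19.5%) were lower, 1 was higher and 61 were not called, with a median of -0.15.

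**Figure D4:**
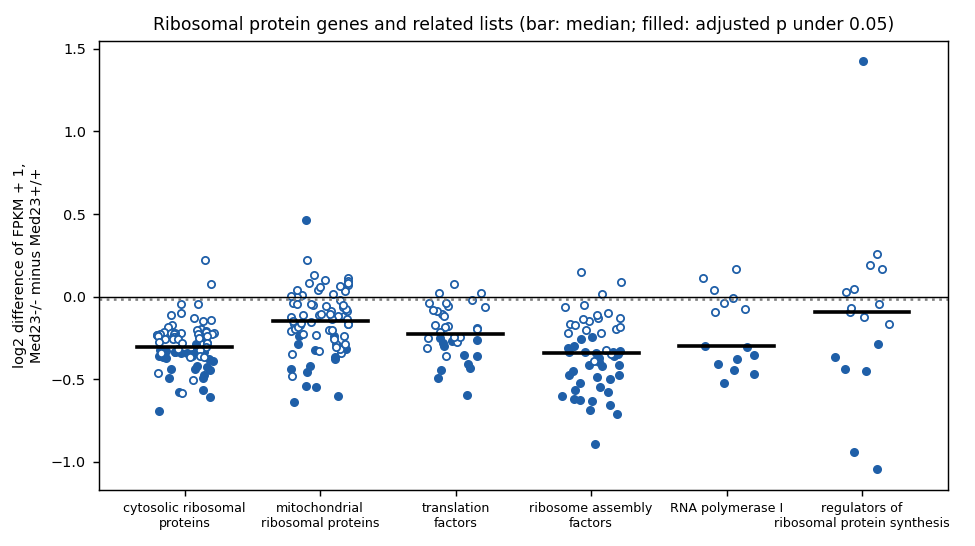
Log2 difference of FPKM + 1 for the tested genes of the ribosomal protein list and of 5 related lists, with the median as a bar, filled points for a limma adjusted p under 0.05 and a dotted line at the median of all genes tested. The medians of the ribosomal proteins, the assembly factors and RNA polymerase I lie between -0.30 and -0.34, and Mycn, at 1.43, is the highest point.

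Rrs1, a factor of large subunit assembly, had the most negative difference of the assembly list. Its level was 49.2, 42.0, 45.3 and 49.3 FPKM in Med23+/+ and 25.4, 25.7, 23.7 and 23.4 FPKM in Med23-/- libraries. The groups were far apart, with a log2 difference of -0.89 (standard error 0.0772, adjusted p = 6.26e-05). Tcof1, at the other end of the list, had a difference of 0.15 that was not called (adjusted p = 0.373). The helicase Eif4a1, which unwinds mRNA ahead of the small subunit, had 505, 522, 509 and 493 FPKM in Med23+/+ and 332, 333, 342 and 336 FPKM in Med23-/- libraries. It was the lowest of the translation factors, at -0.59 (standard error 0.0728, adjusted p = 0.000371), and Eif3m was the highest at 0.08 (adjusted p = 0.739). In RNA polymerase I the ends of the list were the subunit gene Cd3eap at -0.52 (adjusted p = 0.00746) and the termination factor Ttf1 at 0.17 (adjusted p = 0.194). Among the mitochondrial ribosomal proteins they were Mrpl54 at -0.64 (adjusted p = 0.00899) and Mrpl14 at 0.46 (adjusted p = 0.0142).

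When quantile normalized, 30 of the 55 assembly factors and 7 of the 15 RNA polymerase I genes were called lower, beside 13.8% of all genes. So were 7 of the 36 translation factors and 11 of the 77 mitochondrial ribosomal proteins, beside the 10 of 85 ribosomal proteins. With the libraries scaled to the FPKM sum of the other genes, 7.48% of all genes were called lower. The counts were then 18 assembly factors, 2 RNA polymerase I genes, 3 translation factors and 7 mitochondrial ribosomal proteins, beside 7 of the ribosomal proteins. The median of each of these lists stayed negative. None of the assembly, RNA polymerase I or translation genes was called higher under either scaling, and 1 mitochondrial ribosomal protein was under each.

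Of 17 regulators of ribosomal protein synthesis, 6 were lower and 1 was higher, with a median of -0.09. Those lower were Myc, Pdcd4, Max, Larp4, Rps6kb1 and Mdm2. Mtor (-0.05, limma adjusted p = 0.746) and Larp1 (-0.12, adjusted p = 0.319) were not called. Myc had 111.8, 103.7, 105.6 and 106.6 FPKM in Med23+/+ and 62.1, 59.1, 43.1 and 58.9 FPKM in Med23-/- libraries. It was lower without overlap, with a log2 difference of -0.94 (standard error 0.112, adjusted p = 0.000309). Mycn, its paralog, had 4.29, 2.22, 1.76 and 2.33 FPKM in Med23+/+ and 9.94, 8.61, 7.23 and 8.43 FPKM in Med23-/- libraries. It was higher without overlap and past 2-fold, with a difference of 1.43 (standard error 0.188, adjusted p = 0.000534), from a level far under that of Myc. Pdcd4, an inhibitor of Eif4a1 that the S6 kinases mark for degradation, had 51.8, 51.6, 67.4 and 47.5 FPKM in Med23+/+ and 23.8, 28.5, 25.5 and 25.1 FPKM in Med23-/- libraries, lower past 2-fold (-1.05, standard error 0.111, adjusted p = 0.000177). Over all settings its difference ran from -1.11 to -0.94, and it was under 2-fold in 4 of them. Over the 20 settings the difference of Myc ran from -0.99 to -0.82 and that of Mycn from 1.30 to 1.72, with every adjusted p at or below 0.00269.

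Introns of ribosomal protein genes often carry small nucleolar RNAs, which guide the modification of other RNAs. By the annotation, 32 such genes of 65 to 149 nt lay within 23 members on the same strand. Of these, 13 were at 0 FPKM in all 8 libraries and 6 were above 0 in all 8. Of the 19 tested, 1 was lower, Snord33 in Rpl13a (-9.50, adjusted p = 0.00721), and 1 was higher, Snora62 in Rpsa (4.41, adjusted p = 0.0463). This was 5.26% in each direction, beside 14.1% of all genes called lower and 15.9% higher. The call of Snora62 was lost in 9 of the 19 alternatives, among them a pseudocount of 0.1 and leaving out any Med23-/- library. Snord33 was listed at 0 in 3 Med23-/- libraries and Snora62 at 0 in 2 Med23+/+ libraries, so neither difference is a measured fold. Both host genes were called lower.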

How the data were processed

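Total RNA from 8 cell samples was sequenced on the Illumina X-10 platform. Reads were checked with FastQC, trimmed with Cutadapt, mapped to mm10 by Tophat2 and quantified by cuffdiff, with correction for fragment bias and weighting of multiply mapped reads. Tool versions, gene annotation and library normalization were not given in the sources used here. The authors deposited an FPKM value per gene for each library, which was used here. The deposited FPKM mean per genotype, log2 fold change, test score, p-value and q-value of the authors' own comparison were not used. All library columns were used (0 left out).

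Values were taken as log2(FPKM + 1). Genes averaging 1 FPKM or more (12328) entered a limma fit (version 3.58.1, R 4.3.3, lmFit and eBayes with a trend), p-values were adjusted by Benjamini-Hochberg over all of them, and an adjusted p under 0.05 was a call. Fold changes are on the log2(FPKM + 1) scale, which understates the change of low genes. Ratios of variants were compared by exact permutation tests (two-sided). The limma step was tested on simulated data. The members and lists were chosen with earlier results of these data known. Genes named are the 8 members with the highest and the 8 with the lowest difference, the 4 most and the 4 least abundant, variants with their parents, members with a known role, and in related lists the ends of the range and any gene past 2-fold. Rps25, Gnb2l1, Myc and the other regulators besides Mycn and Pdcd4 were named after their values were seen. Rpl7a, Rpl27a, Rpl15 and Rpl14 were named for the length of their C and T run among members called.

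GENCODE vM21 (mm10) gave coordinates, gene types and transcripts. Of the table's symbols 23310 matched directly, 664 by an older symbol and 372 not at all, and all 88 members matched. Promoter windows come from RefSeq on GRCm38.p6, the same build. Python 3.11.15 served for tables and figures (numpy 2.4.6, pandas 2.3.3, scipy 1.17.1, matplotlib 3.10.9).

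As alternatives, the pseudocount was set to 0.1, the filter to any value above 0 or to a mean of 5 FPKM, and the scaling to quantile, median-ratio or the FPKM sum of other genes. The trend was dropped, libraries were weighted, the replicate number or its split into 1 and 2 against 3 and 4 entered as a covariate, and each library was left out once. Scaling to other protein-coding genes, and the share over protein-coding genes, were added after seeing the data. Some single-gene results are not reported here.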

Additional observations from a re-analysis of the deposited data

Results flagged for a closer look

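A single group stood apart. Rpl36a in Med23-/- had a gap between replicate 4, at 494.1 FPKM, and the next library that made up 0.844 of the range of the group, which is more than a group of 4 usually shows. The other libraries had 292.3, 254.9 and 284.9 FPKM. With 80 groups examined, chance alone marks about 1 in 20 of them, and 1 was marked here.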

How the results depend on the processing

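The number of members called lower was 35 of 85 (41.2%, beside 14.1% of all genes). With all genes above 0 FPKM it was 19 (21.8%, beside 8.72% of all genes). It was 10 (11.8%, beside 13.8%) after quantile normalization and 7 (8.24%, beside 7.48%) when scaled to the FPKM sum of the other genes. On leaving out each library it was lowest at 11 without Med23+/+ replicate 3 (12.9%, beside 9.92% of all genes). The highest was 42 without Med23-/- replicate 4 (49.4%, beside 13.6%). The cause was not tested. The median log2 difference became -0.1726 (quantile) and -0.2534 (sum of other genes), and ran from -0.3099 to -0.2834 without each library. With the latter scaling 922 of all genes were called lower and 1716 higher, against 1738 and 1957. The members' share of FPKM changed by -1.988 percentage points, and by -1.279 over all genes whatever their length, where the genotypes overlapped. After quantile normalization the differences of Rpl39 (0.0173), Rplp2 (0.01541), Rps14 (0.1559), Rpl36 (0.06962) and Rpl41 (0.1068) turned positive, as did Rps14 (0.007245) and Rpl36 (0.007837) when scaled to the other genes, which moved the median of all genes from -0.01 to 0.03 and so carries values this near to 0 across it. Rps4l became -0.008478 with sample weights. Without each library, Rps27 ran from -0.2186 to 0.002624, Rps14 from -0.09885 to 0.04957 and Rps4l from -0.0142 to 0.138. None of these was called. Of 702 comparisons of named genes with an alternative, 590 kept direction and side of the threshold, 97 lost and 4 gained a call, and 11 reversed. Of the 35 members called, 8 kept the call without each library in turn. The share of all called genes that did so was not counted, so these 8 cannot be set against a background. Deviations of same-numbered libraries correlated at 0.1298, -0.09598, -0.02602 and 0.1593, values too few and small to decide whether replicate numbers pair the samples. Med23+/+ replicate 1 correlated at 0.1298 and 0.1625 with Med23-/- replicates 1 and 2, and at -0.1445 and -0.1275 with 3 and 4. Med23+/+ replicate 4 had the reverse signs. With the replicate block 29 members (34.1%) were called lower, beside 14.9% of all genes. With replicates 1 and 2 against 3 and 4 as a covariate 40 (47.1%) were, beside 15.0%. Depth could not be read from FPKM.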
